A study of Mus musculus with 4 samples.

Results

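The mRNAs of the RNA polymerase II (Pol II) transcription machinery were followed in mouse embryonic fibroblasts after knockdown of eIF1A, a translation factor with which small ribosomal subunits scan mRNAs to reach a start codon. Members were chosen by gene symbol, with earlier results of these data known. They are the genes of Pol II subunits, Mediator, the general initiation factors, elongation and pausing factors, Integrator and the cleavage and polyadenylation factors. Of 4878 genes in the table, 74 had such a symbol. Libraries of the first group came from fibroblasts at passages 5-8 transfected with siRNA labelled Si-eIF1A (X+18), and those of the other group from fibroblasts of the same passages that received a negative control siRNA, labelled Si-Negative control. Both were transfected with Lipofectamine RNAimax, and each group had 2 bulk MARS-seq libraries, which sequence the 3′ ends of polyadenylated RNA.

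Recovered reads over the genes analysed came to 2152331 and 2352111 in knockdown libraries 1 and 2 and to 2182825 and 2595625 in control libraries 1 and 2. Genes for eIF1A itself were not analysed here, so the depth of the knockdown is unknown. Whether replicates were grown apart is not in the labels, so p-values measure only how far these samples spread, and that spread may be technical. Of 12 fibroblast markers 3 were among the genes analysed here (Vim, S100a4 and Fn1), with summed levels of 9879 and 12562 normalised counts in knockdown libraries against 23010 and 17548 in controls. Most of that sum was Vim, at 8437 and 10504 in knockdown libraries against 20136 and 15531 in controls. S100a4 was also lower (104 and 101 against 680 and 689), but the groups of Fn1 overlapped (1338 and 1957 against 2194 and 1328). Of 3 neural markers Map2 was present, at 5.65 and 10.9 in knockdown libraries against 18.7 and 16.2 in controls, and the 5 epithelial, 4 endothelial, 4 haematopoietic and 3 skeletal muscle markers were not analysed here. Their part in the results was not tested. In such bulk samples fewer cells of a type and less RNA per cell cannot be told apart.

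Pol II makes all mRNA precursors. It is placed at promoters by the general factors TFIIA to TFIIH, of which TFIID carries the TATA-binding protein, and Mediator links it to activators bound elsewhere. Soon after starting, Pol II is held by the pausing factor NELF, released by the kinase P-TEFb and the super elongation complex, and at the end of the gene the cleavage and polyadenylation factors cut the RNA. Integrator cuts the RNA of paused polymerases and of small nuclear RNA genes. Fibroblasts, like other cells, need these factors for nearly all of their mRNA.

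Promoter sequence is shown for 3 members. Polr2a is the largest subunit and fell, and Gtf2f1 is a TFIIF subunit and rose. Med29 was called higher in the main test, though not in every alternative. Paf1, which starts on the opposite strand from the same short stretch, was not called. The sequences are the 250 bases before the RefSeq start (build GRCm38.p6, minus strand of chr11:69758634-69758883, chr17:57011289-57011538 and chr7:28392691-28392940), with capitals at matches on either strand. The letters searched were TATAAA for the TATA box, CCAAT for the box of that name, GGGCGG for the GC box and CCGGAAG for an ETS-type site. Further searches used TGACGTCA for the cyclic AMP response element, CACGTG for the E-box and ATGGCGGC for the core of the TISU element. No matched base lay in more than 1 of these motifs.
Polr2a: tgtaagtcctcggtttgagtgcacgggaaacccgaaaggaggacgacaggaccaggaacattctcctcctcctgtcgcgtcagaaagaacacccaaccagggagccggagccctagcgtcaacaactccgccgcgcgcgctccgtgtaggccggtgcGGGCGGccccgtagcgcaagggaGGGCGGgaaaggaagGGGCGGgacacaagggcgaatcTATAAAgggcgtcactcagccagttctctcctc
Gtf2f1: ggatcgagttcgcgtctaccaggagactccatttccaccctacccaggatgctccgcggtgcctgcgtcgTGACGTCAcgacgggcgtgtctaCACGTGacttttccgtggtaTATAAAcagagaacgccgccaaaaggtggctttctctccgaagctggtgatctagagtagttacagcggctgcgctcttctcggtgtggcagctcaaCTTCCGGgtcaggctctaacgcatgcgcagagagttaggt
Med29: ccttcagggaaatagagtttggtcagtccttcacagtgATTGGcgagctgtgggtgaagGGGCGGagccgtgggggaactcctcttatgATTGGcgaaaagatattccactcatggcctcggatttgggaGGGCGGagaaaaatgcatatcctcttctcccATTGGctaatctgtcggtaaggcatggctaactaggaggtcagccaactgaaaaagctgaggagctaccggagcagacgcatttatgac

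In the Polr2a window the TATA box began 33 bases before the start, behind 3 GC boxes. The Gtf2f1 window held no GC box. Its TATAAA lay 137 bases before the start, with a cyclic AMP response element at 180 and an E-box at 157. Med29 and Paf1 are annotated head to head with 242 bases between the genes, and their RefSeq windows share 195 bases, so that 3 CCAAT boxes and 2 GC boxes belonged to both. These matches describe the letters and not bound sites. A promoter entry existed for 62 members, of which 67.7% held a GC box in some window and 32.3% an ETS-type site, against 35.7% and 8.86% of all 32851 windows. The member shares count a gene with a match in any of its windows, while the other shares count single windows. Those windows are not limited to the genes analysed here, so the shares are not like for like, and enrichment was not tested. The other shares were 12.9% of members and 13.6% of windows for the TATA box, 33.9% and 37.4% for CCAAT, 4.84% and 1.79% for the cyclic AMP response element, and 14.5% and 7.15% for the E-box. The core of TISU, an element just after the start site known from short-leader mRNAs that are translated without scanning, was found on either strand in 14.5% of members and 2.24% of windows. On the gene's own strand after the start it was found in 5 members, against 0.925% of all windows. It began 13 bases into Med4, which rose, and 33 bases into Ell, which fell. Taf5, Cpsf2 and Taf3 held it at bases 18, 23 and 25. Taf5 and Taf3 did not pass the test given below, and Cpsf2 had too few reads to be tested.

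The machinery as a whole was split. Of the 74 members, 67 had a mean of at least 5 normalised counts and were tested, 6 were higher and 11 lower in knockdown libraries, and 50 did not pass (limma on log2(normalised count + 1), adjusted over all genes, adjusted p under 0.05). These 17 calls make 25.4% of the tested members, against 37.5% of 4605 genes, where 15.9% were higher and 21.6% lower. The median log2 fold change was 0.08 over the members and −0.01 over all genes. Changes of at least 2-fold on this scale were found in 16.4% of members and 25.5% of all genes. The knockdown libraries lay on 1 side of both controls in 40 members, 19 higher and 21 lower, which is 59.7%, against 67.8% of all genes (32.4% higher and 35.5% lower). The members thus had fewer calls than the table as a whole. All fold changes below are knockdown over control on the log2(normalised count + 1) scale, with the SE of the limma fit where an error is given (n = 2 libraries a group).

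**Figure D1:**
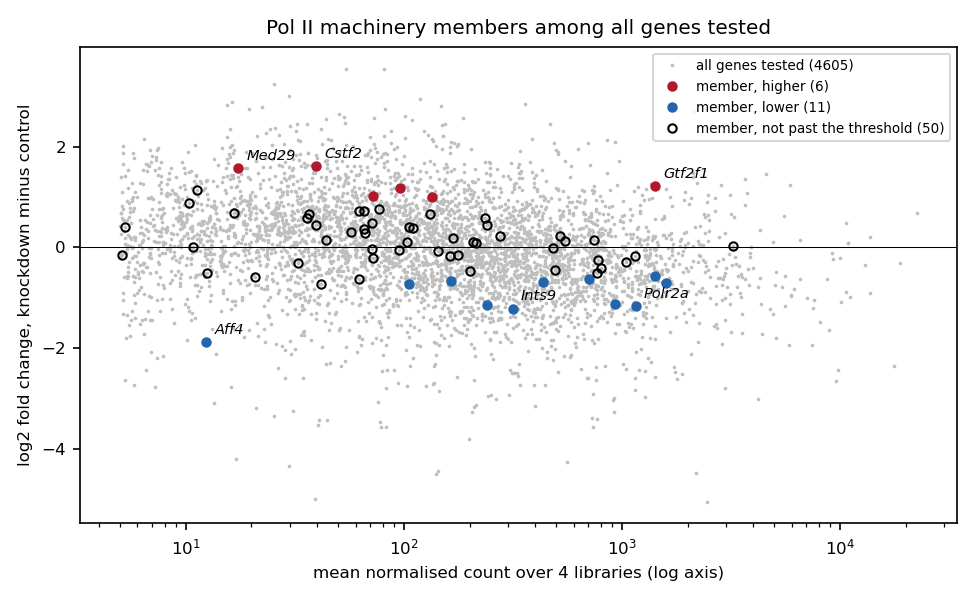
Log2 fold change (knockdown minus control) against mean normalised count (log axis) for 4605 tested genes (grey) and the 67 tested members, 6 called higher (red), 11 called lower (blue) and 50 not past the threshold (open). The members lie within the cloud of all genes, with a log2 fold change of −1.87 for Aff4 at the low end and 1.61 for Cstf2 at the high end.

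The direction of the split depended on the scaling. The main values use the authors' own normalisation. After scaling to equal totals, the median of all genes was 0.34 and that of the members 0.43, and 17 members were higher and 4 lower (28.2% and 13.1% of all genes). With TMM scaling 8 were higher and 7 lower (17.3% and 19.5% of all genes). Quantile normalisation gave 6 and 6 (17.5% and 17.5% of all genes). The quasi-likelihood test of edgeR on recovered reads gave 8 and 7 (17.5% and 19.7%), and DESeq2 5 and 7 (14.3% and 19.1% of 4337 genes with an adjusted p). Of the 17 calls, 10 were also made at equal totals in the same direction and 13 with TMM. Leaving out 1 library moved the counts as well. Members called lower numbered 6 without knockdown replicate 1, without knockdown replicate 2 and without control replicate 1, and members called higher numbered 3 without control replicate 1. Only Gtf2f1, Polr2a and Ints9 passed in the same direction under all 18 alternatives tried.

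Median transcript GC content was highest in the members called lower. Members that fell had a median of 56.3% (44.5% to 60.2%), and members that rose 50.2% (45.2% to 56.0%). Members not called had 49.6% (39.6% to 61.2%), close to those that rose. Over all genes the medians were 55.9% for those that fell, 48.8% for those that rose and 50.2% for those not called. Across the 67 members Pearson's r between fold change and GC was −0.246, and across 4600 genes −0.419, both over genes of the same 4 libraries. When a smooth trend on transcript GC was removed from each library, 8 members were higher and 4 lower, against 14.6% and 14% of all genes, and 6 of the 17 calls were made again (Gtf2f1, Med10, Med29, Polr2a, Ints9 and Aff4). With the trend on the last 500 bases removed, 9 were higher and 6 lower (15.7% and 16.4% of all genes), and 9 of the 17 were made again.

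Among the 6 Pol II subunits tested, 1 was called in limma (16.7%, against 37.5% of all genes), the catalytic subunit. Polr2a (mm10 chr11:69733997-69758637, minus strand), which carries the C-terminal domain that is phosphorylated during the transcription cycle, had 774 and 650 normalised counts in knockdown libraries against 1782 and 1418 in controls. The 2 groups stood well apart. The fall was 2.24-fold (log2 fold change −1.16 ± 0.216 SE, limma, adjusted p = 3.43e-04) and ran from −0.81 to −1.33 over the 18 alternatives. Polr2b, the other large subunit that closes the active site with it, had 37.9 and 53.0 in knockdown libraries and 43.3 and 24.3 in controls, which overlap. Its log2 fold change of 0.45 had a 95% interval of −0.35 to 1.25 (adjusted p = 0.383), and an Igfbp7 exon on the opposite strand lies within its last 1000 bases, so reads of the 2 genes could be mixed if strand was not used. Igfbp7 itself had a log2 fold change of −1.06 (adjusted p = 0.00182). Polr2h, shared with Pol I and Pol III, had 91.2 and 72.7 in knockdown libraries against 52.2 and 45.4 in controls, without overlap, and missed the threshold (log2 fold change 0.73, adjusted p = 0.0692). It passed as higher in edgeR (0.0465), with TMM (0.0483), at equal totals (0.00796) and with either GC trend removed (0.0394 and 0.0198). Polr2c, Polr2f and Polr2g overlapped between the groups, with log2 fold changes of 0.15, 0.02 and 0.39. The limma call for Polr2a beside none for these 5 is no test that the subunits differed from each other.

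Of 5 tested genes of TFIIA, TFIIB, TFIIE and TFIIF, which bring Pol II to the promoter, 2 were called and both rose. The calls made 40% of these genes, near the 37.5% of all genes. Gtf2f1 (chr17:57003405-57011288, minus strand), the large subunit of TFIIF, which binds Pol II and is needed for its recruitment, had 2012 and 1956 normalised counts in knockdown libraries against 845 and 863 in controls. Replicates differed far less than groups here, and the rise was 2.32-fold (log2 fold change 1.21 ± 0.206 SE, limma, adjusted p = 1.46e-04). Its partner Gtf2f2 had 194 and 129 in knockdown libraries and 79.7 and 123 in controls, narrowly without overlap, and did not pass (log2 fold change 0.67, 95% interval 0.06 to 1.27, adjusted p = 0.0757). Gtf2a2, the small subunit of TFIIA, which stabilises TATA-binding protein on DNA, had 210 and 146 in knockdown libraries against 65.0 and 117 in controls. It rose 2.0-fold (limma, adjusted p = 0.0133). It did not pass with either GC trend removed (0.0615 for the transcript and 0.16 for the last 500 bases) or in limma without its trend (0.0909). Leaving out control replicate 1 gave 1.49-fold (adjusted p = 0.127), and leaving out knockdown replicate 1 gave 1.67-fold (0.143). Gtf2b, the TFIIB gene, had 22.6 and 10.9 in knockdown libraries against 18.7 and 30.8 in controls, and Gtf2e2 of TFIIE had 28.3 and 29.9 against 35.4 and 36.5. Neither passed, with log2 fold changes of −0.58 and −0.30. The TFIIH members Gtf2h5 and Gtf2h3 had log2 fold changes of 0.41 and 0.36 with overlapping groups. Limma, edgeR and DESeq2 called 0 of these 2 genes, against 37.5% of all genes in limma. Of the 2, 0 had an unadjusted limma p under 0.05.

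No TFIID member was called in limma, against 37.5% of all genes, although 2 of 8 had an unadjusted limma p under 0.05. edgeR and DESeq2 on the recovered reads also called 0 of them. Tbp, the TATA-binding protein, had 47.6 and 44.2 normalised counts in knockdown libraries and 38.4 and 44.6 in controls. These values overlap, and the interval of its log2 fold change ran from −0.57 to 0.86. Taf1, the scaffold subunit, had 11.3 and 10.2 in knockdown libraries and 11.8 and 9.74 in controls, with a log2 fold change of 0.00. Taf6, which carries a histone fold, had the smallest p, at 699 and 581 in knockdown libraries against 892 and 909 in controls (log2 fold change −0.50, adjusted p = 0.0703). Its partner in the complex Taf9 had 13.7 and 13.6 in knockdown libraries against 5.91 and 8.12 in controls, without overlap but also without a call (adjusted p = 0.258). Reads of Taf9 may also come from Ak6, whose exons share its 3′ end on the same strand. Taf12, Taf3 and Taf5 were higher in both knockdown libraries than in either control, by 0.76, 0.58 and 0.68 on the log2 scale, and did not pass (adjusted p = 0.0772, 0.234 and 0.306). Taf10 had a log2 fold change of −0.17, and Ilk overlaps its 3′ end on the opposite strand.

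**Figure D2:**
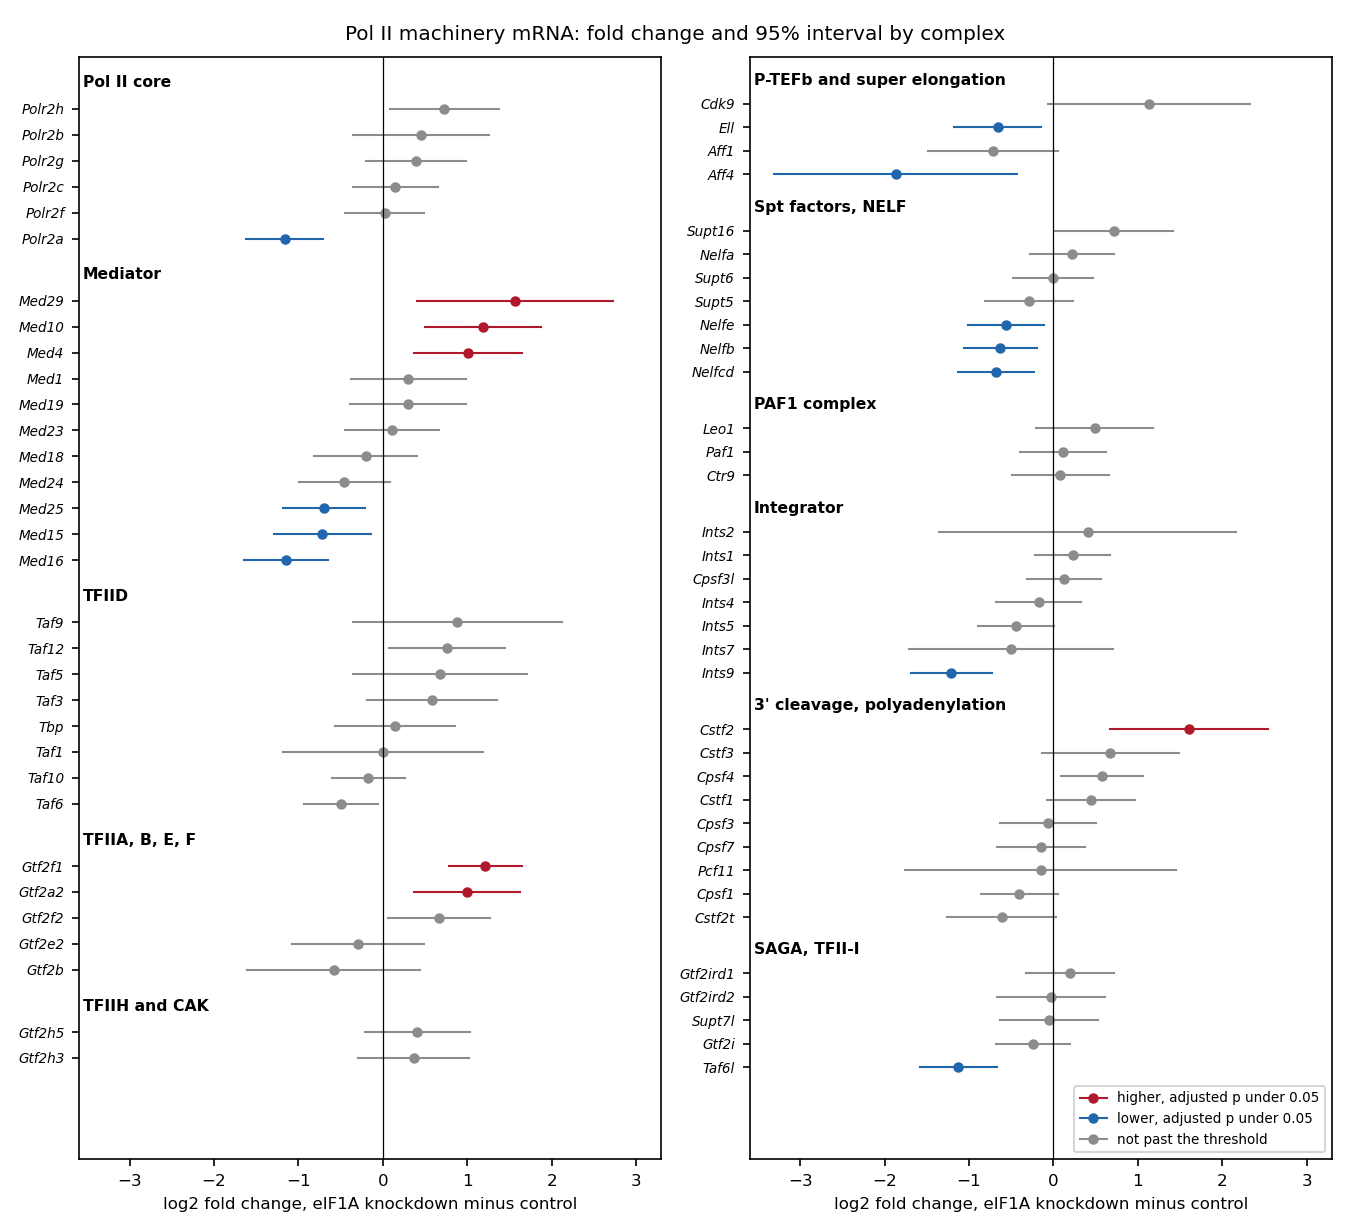
Log2 fold change (knockdown minus control) with its 95% interval from the limma fit for the 67 tested members, grouped by complex. Points are red where called higher, blue where called lower and grey otherwise. Mediator holds calls in both directions, while 0 of 8 TFIID members and 0 of 3 PAF1 members were called, against 37.5% of all genes.

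Mediator held the most calls, 6 of 11 tested members (54.5%, against 37.5% of all genes), and they went both ways. Med16 (chr10:79894708-79908923, minus strand), a tail subunit that contacts activators, had 135 and 164 normalised counts in knockdown libraries against 365 and 298 in controls. It fell 2.21-fold (log2 fold change −1.15 ± 0.237 SE, limma, adjusted p = 8.98e-04), and it did not pass with the transcript GC trend removed (log2 fold change −0.43, adjusted p = 0.166). Med25, a tail-associated subunit bound by viral and cellular activators, had 1157 and 1232 in knockdown libraries against 2424 and 1548 in controls. The controls were far apart from each other. The fall was 1.62-fold (adjusted p = 0.0239), and 1.30-fold without control replicate 1 (adjusted p = 0.292, and 0.0726 without knockdown replicate 1). Med15, the tail subunit that binds the lipid regulator SREBP, had 67.8 and 92.4 in knockdown libraries against 133 and 129 in controls, a 1.65-fold fall with adjusted p = 0.0463. Its call was lost when any 1 library was left out (adjusted p = 0.0555 to 0.34) and with the replicate block (0.0732). With the transcript GC trend removed Med25 (log2 fold change −0.19, adjusted p = 0.54) and Med15 (−0.30, 0.427) did not pass. Nor did they at equal totals (0.2 and 0.33). Med25 was lost with quantile normalisation (0.23) but passed in edgeR (0.0336) and DESeq2 (0.0309). Med15 passed with quantile normalisation (0.0348) but not in edgeR (0.0677) or DESeq2 (0.117). Med24 and Med23, also of the tail, did not pass, with log2 fold changes of −0.46 and 0.11.

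The Mediator mRNAs that rose were those of Med10 and Med4, which build the middle module, and Med29, the counterpart of the Drosophila protein Intersex. Med10 had 125 and 136 normalised counts in knockdown libraries against 38.4 and 83.6 in controls, a 2.28-fold rise (adjusted p = 0.00804). Gm26819, not analysed here, overlaps its 3′ end on the opposite strand. The controls differed more from each other than the knockdown libraries did, and without control replicate 1 the rise was 1.55-fold (adjusted p = 0.117). Med4 had 82.3 and 112 in knockdown libraries against 44.3 and 50.3 in controls, a 2.01-fold rise (adjusted p = 0.0139, and 0.196 without knockdown replicate 2). Med29 (chr7:28386146-28392708, minus strand) had 18.6 and 34.0 in knockdown libraries against 4.92 and 12.2 in controls, 2.96-fold higher (adjusted p = 0.0333), with adjusted p = 0.156 without control replicate 1 and 0.315 without knockdown replicate 2. Its head-to-head neighbour Paf1 had 210 and 221 in knockdown libraries and 235 and 167 in controls, which overlap. The 95% intervals of Med29 (0.40 to 2.73) and Paf1 (−0.39 to 0.63) overlap too, and a difference between these genes was not tested. Med29 did not pass in DESeq2 (adjusted p = 0.0637) or with quantile normalisation (0.0695). Med4 did not pass with the transcript GC trend removed (limma, adjusted p = 0.069). Med1, the subunit that nuclear receptors bind, had 55.7 and 70.0 in knockdown libraries and 59.1 and 43.0 in controls and did not pass (log2 fold change 0.30, 95% interval −0.38 to 0.98). Med18 and Med19 also did not pass, at −0.20 and 0.30. The calls did not divide cleanly by module, since the tail genes Med24 and Med23 were not called and Med29 rose with Med10 and Med4. Modules were looked at only after the values were seen, and a difference between them was not tested.

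**Figure D3:**
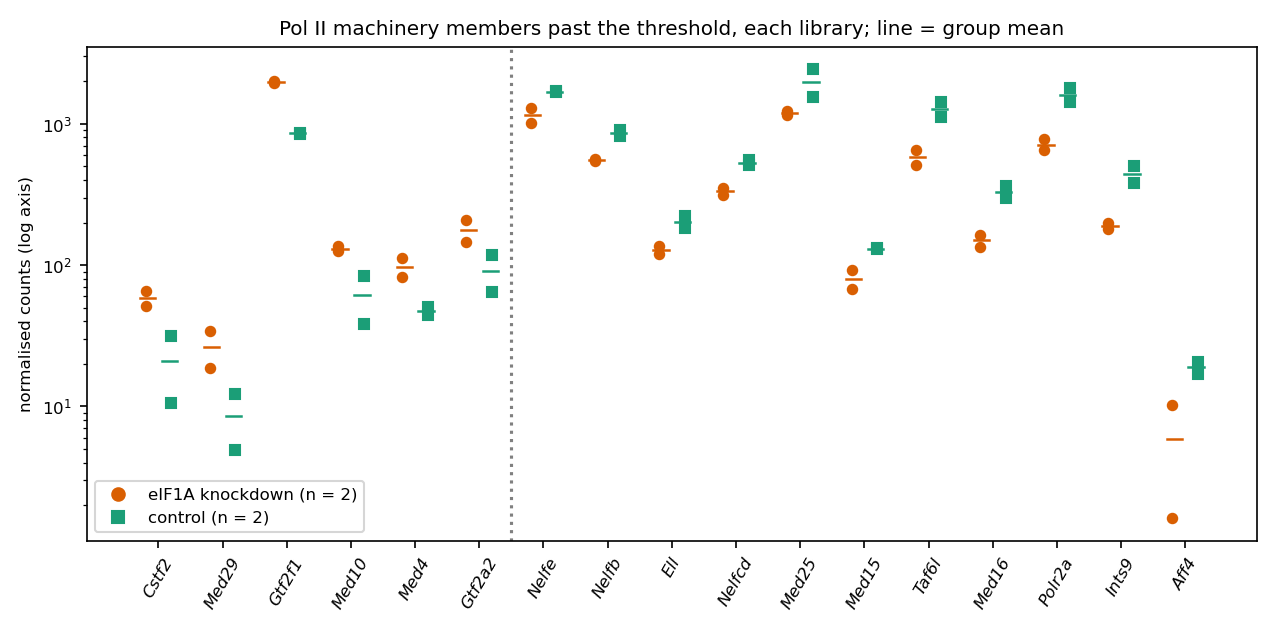
Normalised counts (log axis) in each library for the 17 members past the threshold, eIF1A knockdown (circles) left of control (squares), with a line at each group mean; the dotted line parts the 6 genes called higher from the 11 called lower. In all 17 the knockdown libraries lie on 1 side of both controls, as in 67.8% of all genes, and selection by the test makes this likely. The knockdown libraries of Aff4 are the most spread.

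Of the 4 NELF subunits, which hold Pol II shortly after the start, 3 were called lower, by similar amounts. Over all genes 21.6% were called lower. Nelfb had 542 and 567 normalised counts in knockdown libraries against 817 and 902 in controls, 1.55-fold lower (limma, adjusted p = 0.0230). Nelfcd had 352 and 313 in knockdown libraries against 509 and 555 in controls, 1.60-fold lower (adjusted p = 0.0181). Nelfe, the RNA-binding subunit, had 1301 and 1010 in knockdown libraries against 1677 and 1703 in controls, 1.47-fold lower (adjusted p = 0.0470). The groups of all 3 genes did not overlap, as in 67.8% of all genes, and the falls are small. All 3 calls were lost at equal totals (adjusted p = 0.312, 0.25 and 0.449), where the log2 fold changes of Nelfb, Nelfcd and Nelfe stayed below 0, and without knockdown replicate 2 (0.0834, 0.146 and 0.371). With the transcript GC trend removed they were lost too (0.277, 0.21 and 0.977), and so they were with quantile normalisation (0.279, 0.158 and 0.557). Nelfe did not pass with TMM (0.0823), in edgeR (0.0924) or in DESeq2 (0.103), where Nelfb and Nelfcd did. Nelfe also lost its call with the replicate block (0.068) and without either control (0.0906 and 0.0879), and Nelfb without knockdown replicate 1 (0.116) and control replicate 2 (0.0718). Ctsz overlaps the 3′ end of Nelfcd on the opposite strand, and its own log2 fold change was 0.11 (adjusted p = 0.742). The remaining subunit gene Nelfa had 296 and 290 in knockdown libraries and 305 and 208 in controls, with a log2 fold change of 0.22 and an interval of −0.28 to 0.72.

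Of the 4 tested genes of P-TEFb and the super elongation complex, 2 were called, both lower, against 21.6% of all genes; neither was called by edgeR or DESeq2. Aff4, the scaffold of the super elongation complex, had 1.61 and 10.2 normalised counts in knockdown libraries against 20.7 and 17.04 in controls, which came from 2 and 15 reads against 21 and 21. The ratio of summed reads scaled for library size, control over knockdown, was 2.98 (exact Clopper-Pearson 95% interval 1.66 to 5.58, counting error only). Its fitted fall of 3.66-fold (adjusted p = 0.0389) became 7.56-fold when knockdown replicate 2 was left out and 1.77-fold when knockdown replicate 1 was, where it did not pass (adjusted p = 0.421). It also did not pass without control replicate 1 (0.0704), with TMM (0.0501), at equal totals (0.0559), in edgeR (0.0823) or in DESeq2 (0.133). Ell, an elongation factor of the same complex, had 136 and 119 in knockdown libraries against 223 and 182 in controls. That 1.58-fold fall passed narrowly (adjusted p = 0.0419), and not without either knockdown library or control replicate 1 (adjusted p = 0.0897 to 0.238) or with the replicate block (0.0639). Ell did not pass with TMM (0.0609), at equal totals (0.357), in edgeR (0.0546), in DESeq2 (0.0968) or with either GC trend removed (0.434 and 0.109) either. Aff1, the related scaffold, had 27.4 and 34.0 in knockdown libraries against 65.0 and 39.8 in controls and did not pass (log2 fold change −0.72, adjusted p = 0.138). Cdk9, the kinase of P-TEFb, had 16.1 and 15.6 in knockdown libraries against 6.89 and 6.49 in controls. The replicates were close and the groups did not overlap, yet at these low counts the log2 fold change of 1.13 had an interval of −0.06 to 2.33 (adjusted p = 0.129), and it passed in limma without its trend (0.0203) and with the transcript GC trend removed (0.0454).

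Of the Spt factors and the PAF1 complex, none passed in limma, edgeR or DESeq2. In limma 37.5% of all genes passed, and these sets are small. Supt5, the subunit of DSIF that clamps Pol II, had 961 and 873 normalised counts in knockdown libraries and 1525 and 822 in controls. Control replicate 1 stood above the other 3 libraries, and the log2 fold change of −0.29 did not pass. Supt6, a histone chaperone, had 417 and 546 in knockdown libraries and 535 and 430 in controls, with a log2 fold change of −0.01 and an interval of −0.48 to 0.46. Supt16, of the histone chaperone FACT, had 58.1 and 98.5 in knockdown libraries against 49.2 and 42.2 in controls, without overlap. Its log2 fold change of 0.72 had an unadjusted p = 0.0433 and did not pass (adjusted p = 0.0970), though it did at equal totals (0.0115). The PAF1 complex genes Paf1, Ctr9 and Leo1 had log2 fold changes of 0.12, 0.08 and 0.49, with overlapping groups in each, and 0 had an unadjusted limma p under 0.05 or a call by edgeR or DESeq2. Leo1 had the smallest p of the complex, at 62.2 and 107 in knockdown libraries and 47.2 and 70.6 in controls (adjusted p = 0.269).

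Within Integrator, 1 of 7 tested members was called (14.3%, against 37.5% of all genes). Ints9 (chr14:64950045-65039832, plus strand), which pairs with the endonuclease subunit in the RNA-cleaving module, had 197 and 181 normalised counts in knockdown libraries against 500 and 384 in controls. It fell 2.31-fold (log2 fold change −1.21 ± 0.229 SE, limma, adjusted p = 4.01e-04), with a range of −0.86 to −1.40 over 18 alternatives. Cpsf3l, the older symbol of Ints11, is that endonuclease, and it had 585 and 560 in knockdown libraries against 554 and 497 in controls. Its groups were barely apart, with a log2 fold change of 0.13 and an interval of −0.31 to 0.57. The interval of Ints9 was −1.69 to −0.73, and a difference between these 2 genes was not tested. Ints5 had 429 and 407 in knockdown libraries against 631 and 512 in controls and did not pass (log2 fold change −0.44, adjusted p = 0.116). Ints1, the largest subunit, had 559 and 564 in knockdown libraries against 514 and 446 in controls (log2 fold change 0.23). Ints4, Ints7 and Ints2 had −0.17, −0.51 and 0.40, the last with as few as 3 reads in a library.

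Of the cleavage and polyadenylation factors, 1 of 9 tested was called in limma (11.1%, against 37.5% of all genes). On recovered reads edgeR called 2 of them higher and DESeq2 1 (17.5% and 14.3% of all genes). Cstf2 encodes the subunit that binds the G- and U-rich element downstream of the cut, and it had 51.7 and 65.2 normalised counts in knockdown libraries against 31.5 and 10.6 in controls. Its rise of 3.05-fold (limma, adjusted p = 0.00798) differed with the control used, with 5.11-fold when control replicate 1 was left out and 1.82-fold when control replicate 2 was (adjusted p = 0.0846). The autosomal paralog Cstf2t went the other way in value, with 48.4 and 48.9 in knockdown libraries against 82.7 and 68.2 in controls. An exon of Nox1, which was not analysed here, overlaps the 3′ end of Cstf2 on the opposite strand. Cstf2 did not pass with either GC trend removed (limma, adjusted p = 0.086 for the transcript and 0.0691 for the last 500 bases). Nor did Cstf2 pass in limma without its trend (0.0607). The groups of Cstf2t did not overlap and the difference was not called (log2 fold change −0.62, adjusted p = 0.127). The intervals of the 2 paralogs were 0.68 to 2.54 for Cstf2 and −1.26 to 0.03 for Cstf2t, and a difference between these genes was not tested. Cpsf4, a zinc finger subunit, had 260 and 304 in knockdown libraries against 193 and 183 in controls and missed narrowly (log2 fold change 0.58, adjusted p = 0.0560). Cpsf1, the largest subunit, had 714 and 664 in knockdown libraries against 1042 and 796 in controls (log2 fold change −0.40, adjusted p = 0.153). Cpsf3, the endonuclease, had a log2 fold change of −0.06 and an interval of −0.63 to 0.50. Cstf1, Cstf3, Cpsf7 and Pcf11 had 0.44, 0.67, −0.15 and −0.15 and did not pass.

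Other symbols matched by the rule belong to neighbouring complexes. Taf6l (chr19:8774487-8786417, minus strand), the TAF6-like subunit of the coactivator SAGA, had 648 and 514 normalised counts in knockdown libraries against 1415 and 1125 in controls. It fell 2.18-fold (log2 fold change −1.13 ± 0.219 SE, limma, adjusted p = 5.08e-04). The last 500 bases of its transcript held 71.0% G and C, and with the trend on that content removed the log2 fold change was 0.31 (adjusted p = 0.234), while removal of the transcript GC trend left −0.47 (adjusted p = 0.0882). Polr2g lies on the same strand 6709 bases from Taf6l and had overlapping groups. Supt7l, also of SAGA, had 83.1 and 103 in knockdown libraries and 85.6 and 107 in controls. Gtf2i and its relatives Gtf2ird1 and Gtf2ird2, DNA-binding TFII-I proteins that are similar in sequence and may share reads, had log2 fold changes of −0.24, 0.20 and −0.02.

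The 7 members under the minimum had too few reads to compare. Med21 of Mediator's middle module had 6 and 6 reads in knockdown libraries against 2 and 1 in controls. That is a ratio of summed and scaled reads, knockdown over control, of 3.32 with a counting interval of 0.895 to 18.3. Taf1d, a Pol I factor, had 5 and 8 reads against 1 and 3 (ratio 2.70, 0.833 to 11.3), and Ccnc, cyclin C of Mediator's kinase module, had 2 and 8 against 2 and 1 (2.76, 0.712 to 15.6). Every such interval, including those of Cpsf2, Ints10, Polr2l and Tcea1, included 1, so that no difference was detectable at this depth. Cdk7, Cdk8, Cdk12 and Cdk13 and the P-TEFb cyclins were not analysed here.

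Genes of the same pathway with other symbols were taken from a list of 69, of which 39 had values and 37 could be tested. There 7 rose and 4 fell, with a median log2 fold change of 0.51. The 11 calls make 29.7% of the 37 tested, against 37.5% of all genes. The phosphatases of the C-terminal domain split. Ctdsp2 had 365 and 314 normalised counts in knockdown libraries against 1411 and 1008 in controls, a 3.52-fold fall (limma, adjusted p = 5.02e-06), and Ctdsp1 fell 2.0-fold (adjusted p = 0.0016, and 0.104 with the transcript GC trend removed). Ssu72, which also helps 3′ end formation, had 745 and 538 in knockdown libraries against 219 and 293 in controls, a 2.49-fold rise (adjusted p = 2.41e-04). Among 3′ end factors, Fip1l1, which recruits poly(A) polymerase, had 88.8 and 139 in knockdown libraries against 39.4 and 29.2 in controls, a 3.20-fold rise (adjusted p = 5.17e-04). Pabpn1, the nuclear poly(A)-binding protein, had 4458 and 5754 in knockdown libraries against 2561 and 2229 in controls, a 2.12-fold rise (adjusted p = 0.00102).

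The other calls of that list were smaller, apart from that of Inip. Mepce, which caps the 7SK RNA that restrains P-TEFb, fell 1.67-fold, and Mllt1, a chromatin reader of the super elongation complex, fell 1.65-fold (adjusted p = 0.00990 and 0.0131). Neither passed at equal totals (0.15 and 0.174) or without knockdown replicate 2 (0.0847 and 0.101), and Mllt1 did not without control replicate 1 (0.0862). With the transcript GC trend removed the log2 fold changes were −0.0534 for Mepce and −0.0459 for Mllt1 (adjusted p = 0.857 and 0.879). Ercc3, the helicase of TFIIH that opens the promoter, rose 1.72-fold and Gpn1, a GTPase for nuclear import of Pol II, 1.79-fold (adjusted p = 0.0131 and 0.0313). Gpn1 did not pass with the transcript GC trend removed (limma, adjusted p = 0.138). Ercc3 did not pass without knockdown replicate 2 (0.154) and control replicate 1 (0.0561), and Gpn1 without knockdown replicate 1 (0.321), without control replicate 1 (0.0516) and with the replicate block (0.0509). Vwa9, a further Integrator subunit under its older symbol, had 210 and 228 normalised counts in knockdown libraries against 129 and 134 in controls, a 1.66-fold rise (adjusted p = 0.0222, and 0.0798 and 0.158 without knockdown replicates 1 and 2). Vwa9 did not pass with either GC trend removed (limma, adjusted p = 0.085 for the transcript and 0.0946 for the last 500 bases). Inip, of a DNA-binding complex that shares a subunit with Integrator, had 58.9 and 48.9 in knockdown libraries against 5.91 and 5.68 in controls, 8.05-fold higher (adjusted p = 5.53e-05).

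**Figure D4:**
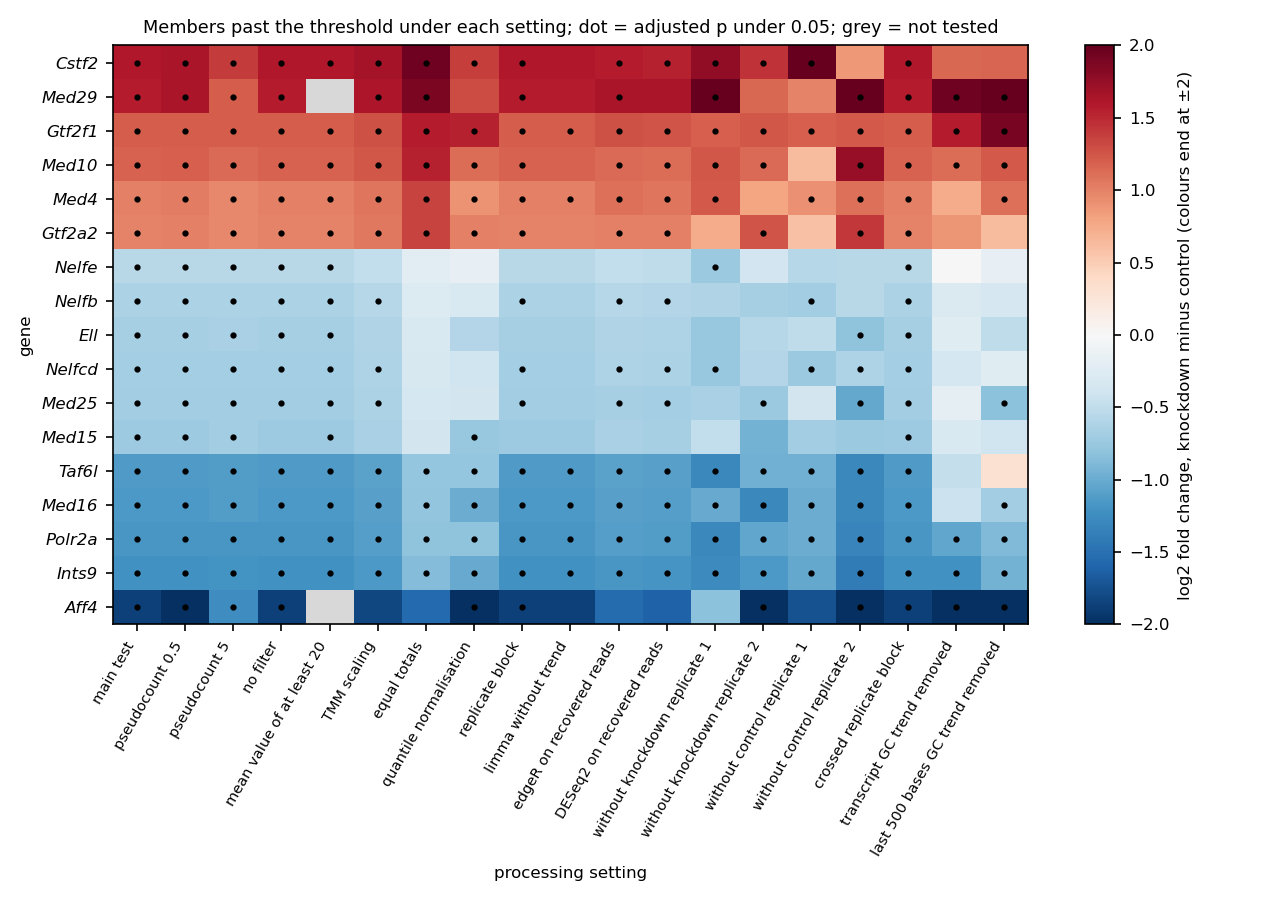
Log2 fold change (colour, knockdown minus control) of the 17 members past the threshold (rows) in the main test and 18 alternative settings (columns), with a dot where the adjusted p was under 0.05 and grey where a gene was under the filter. Gtf2f1, Polr2a and Ints9 have a dot in every column, and Taf6l turns positive with the GC trend of the last 500 bases removed.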

How the data were processed

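Members, lists and tests were chosen with earlier results of these data known. Per the submitters' processing notes bcl2fastq 2.17.1.14, cutadapt 1.8.3, STAR, HTSeq, DESeq2 and the build mm10 were used, without roles or order. Per the labels, oligo(dT)-captured RNA went into bulk MARS-seq and was sequenced on a NextSeq 500. The authors deposited a signal per gene that the file name calls normalised counts. In each column 100% of values were whole multiples of 1 step (within 0.01 read), so that reads could be recovered. The sources used here do not give the use of molecular identifiers or of strand, nor how genes were chosen. No gene was at 0 in any library. The other column, of gene symbols, held no values.

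Groups and replicate numbers came from the titles. Replicates differed by more than counting noise, with a chi-square of 13.7 (knockdowns) and 16.5 (controls) per degree of freedom. Pearson correlations on the log2 scale were 0.977 for knockdowns, 0.972 for controls and 0.910 to 0.932 across them. No batch or date is given. The main test was limma 3.58.1 (R 4.3.3) on log2(value + 1), its prior variance following the mean, over genes with a mean of at least 5, without block, adjusted by Benjamini-Hochberg over 4605 genes. Intervals are at 95%. Count tests used edgeR 4.0.16 and DESeq2 1.42.0; edgeR called 807 genes higher and 909 lower. Fits were tested on simulated counts. Every member past adjusted p 0.05 is named, with the member of smallest p of each complex, the core enzyme genes and the pathway genes past that threshold; other members were added after their values were seen. Coordinates and GC content came from GENCODE M21 (mm10), to which all 74 members matched, and promoters from RefSeq.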

Additional observations from a re-analysis of the deposited data

How the results depend on the processing

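At equal library totals 1299 genes were called higher and 603 lower over the whole table (733 and 996 in the main test), and 17 and 4 members. Without its trend limma called 655 genes lower, and 3 members higher and 4 lower. With the transcript GC trend removed 643 genes and 4 members were lower, and with that of the last 500 bases 6 members. TMM scaling, edgeR and DESeq2 each gave 7 members lower, and quantile normalisation 6. Leaving out 1 library gave 438 to 758 genes higher and 715 to 987 lower, and 3 to 8 members higher and 6 to 10 lower. With the replicate number as a block 641 genes were higher and 918 lower, and 6 and 8 members; Ell, Med15, Nelfe and Gpn1 lost their calls, and no other named call changed. Same-numbered libraries deviated with a correlation of −0.129, and a crossed pairing called 891 genes higher and 1154 lower, and 11 and 12 members. That pairing and the GC settings were chosen after seeing the data. Signs turned for Taf6l (0.31, last 500 bases GC), Gtf2h5 (−0.0835, transcript GC), Tbp (−0.0694 with quantile normalisation, −0.35 and −0.063 with the GC trends) and Med1 (−0.11 and −0.0764 with the GC trends). Over 35 named genes 503 of 627 values kept direction and side of the threshold, 112 lost and 5 gained the call. The causes were not tested. Aff4, Med29 and Cdk9 could not be tested at a mean of at least 20. Depth limits the 7 members below the minimum most, where no ratio could be told from 1.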
